A study of Caenorhabditis elegans with 2 samples.

Results

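A class of ChIP-seq regions of the zinc finger protein Y55F3AM.14 in Caenorhabditis elegans larvae is described here: 1081 regions that recurred in both replicates but did not reach the deposited optimal list. They were selected on measured values, the scores of the deposited lists. A member is a region of the pooled list that overlaps no optimal region and whose summit, the position of its maximum, lies within 100 bp of a summit among the 6416 highest-scoring regions of replicate 1 and of a summit among the 6416 highest-scoring regions of replicate 2. The limit of 6416 is 4 times the 1604 regions of the optimal list. The pooled list held 29629 regions, of which 27586 overlapped no optimal region and are called weaker regions, so the members made up 3.92% of the weaker regions. The other 26505 weaker regions and the 1604 optimal regions served for comparison, in that order, and 439 regions of the pooled list were set aside because they overlapped an optimal region without being one. The size of the class depends on these limits: it was 231 and 3048 regions with rank limits of 2 and 8 times the optimal number, 766 and 1448 with summits within 50 and 200 bp, and 4002 and 4230 without replicate 1 and without replicate 2.

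Chromatin was immunoprecipitated with an anti-GFP antibody from whole L2 larvae of strain OP608 and sequenced, to map where the tagged protein is bound. The strain has the unc-119(tm4063) mutation and the integrated array wgIs608, which holds Y55F3AM.14::TY::EGFP::3xFLAG and the rescuing unc-119(+). There was 1 group of 2 biological replicates that share this strain, and the animals of each were of mixed sex, had been starved at L1 after bleaching and were 42 hours old. Chromatin was sonicated to 200 to 800 bp, and each list was made against 1 control. All samples were whole animals of 1 transgenic line, so a region cannot be assigned to a tissue. The labels do not state which sequence drives the tagged gene.

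Y55F3AM.14, also named znf-782, encodes a protein with C2H2 zinc fingers, a fold that commonly contacts DNA bases. Peak calling on relaxed settings lists true binding sites together with background. The irreproducible discovery rate procedure uses the agreement of ranks between replicates to set a threshold. The optimal list here consisted of the 1604 highest-scoring regions of the pooled list, so members fell outside it on pooled score.

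The following 6 windows show what member summits look like as DNA. Each is the summit with 75 bp on each side, the plus strand of the RefSeq genome WBcel235 (the coordinates of ce11) read 5′ to 3′, and each was chosen as the highest-scoring member, off the first chromosome and free of untranslated exons, that holds a given motif. Capitals mark the motif or its reverse complement. The motifs were GAGAGA (a GA repeat), GACGC (called the CG core below), TGATAA (the core of the site of GATA factors), CACGTG (an E-box) and GTTCGANNC (the core of the B box inside tRNA genes), and the last window holds none of them.
GAGAGA, chrX:13502371-13502521, 1778 bp upstream of sad-1: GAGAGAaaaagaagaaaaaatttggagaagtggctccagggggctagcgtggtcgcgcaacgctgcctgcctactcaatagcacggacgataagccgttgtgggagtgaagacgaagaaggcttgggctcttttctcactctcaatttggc
GACGC, chrIV:3652262-3652412, 3653 bp upstream of CC8.2: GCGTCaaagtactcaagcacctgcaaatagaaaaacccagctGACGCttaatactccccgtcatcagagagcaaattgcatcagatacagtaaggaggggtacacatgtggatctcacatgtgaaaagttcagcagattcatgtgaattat
TGATAA, chrIII:5721986-5722136, at position -789 bp from the start of wrm-1: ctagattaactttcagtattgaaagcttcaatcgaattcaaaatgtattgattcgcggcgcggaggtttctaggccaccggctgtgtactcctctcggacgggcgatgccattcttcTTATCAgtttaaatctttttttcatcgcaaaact
CACGTG, chrII:13680022-13680172, in an intron of rpoa-1: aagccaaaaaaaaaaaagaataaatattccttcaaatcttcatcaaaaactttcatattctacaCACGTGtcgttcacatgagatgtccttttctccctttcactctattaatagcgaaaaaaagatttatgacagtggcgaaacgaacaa
GTTCGANNC, chrIII:6887657-6887807, at a tRNA-Lys gene in an intron of brd-1: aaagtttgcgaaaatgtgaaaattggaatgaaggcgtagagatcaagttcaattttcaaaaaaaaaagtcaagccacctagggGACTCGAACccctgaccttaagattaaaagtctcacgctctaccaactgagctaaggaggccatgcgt
none of the 5, chrII:11756842-11756992, 2394 bp downstream of the start of F44E5.4: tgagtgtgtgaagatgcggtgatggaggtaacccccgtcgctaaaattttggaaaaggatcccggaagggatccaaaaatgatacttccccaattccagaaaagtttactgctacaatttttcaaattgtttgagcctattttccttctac

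The pooled scores of these windows, the signal values that the authors' peak caller gave the regions, were 109.8 for the GAGAGA window, 109.7 for the GACGC window, 109.4 for the TGATAA window, 110.3 for the CACGTG window, 105.2 for the GTTCGANNC window and 110.1 for the last. Score scales of the lists were set by the caller and are used only to rank and describe regions. The sequencing depth behind the lists is unknown, so no interval on a score can be given.

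The scores, ranks and agreement below chose the members and are given as description only. Pooled scores of members ran from 61.6 to 110, with a median of 92.7, against a median of 47.9 for the other weaker regions and 150 for the optimal regions. The highest member reached 110.3, the lowest score of the optimal list to 4 digits, so the scores of members begin where those of the optimal list end. Their pooled ranks lay between 1608 and 8118, and the middle rank was 2455. As −log10, the q value of the peak caller had a median of 1.02 in members, 0.0812 in the other weaker regions and 2.24 in optimal regions. Of the members, 1079 had the same width of 424 bp.

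Members were concentrated just under the optimal list. They made up 67.8% of the weaker regions at pooled ranks 1605 to 2406, 44.5% at ranks 2407 to 3208, 13.5% at ranks 3209 to 4812 and 0.896% at ranks 4813 to 6416, and only 3 lay beyond. Because the score and membership are so tied, each comparison of members with all other weaker regions is also a comparison of higher with lower scores. The tests of 16 properties of location and sequence are repeated below inside ranks 1605 to 3208. Those ranks hold 857 members and 671 other weaker regions. Other comparisons, such as positions around starts, motif combinations, motif shares by location and classes by replicate, are not repeated there. The difference in score remains in them.

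Replicate 1 gave members a median score of 49.5, with a range of 39.9 to 80.2, and replicate 2 gave a median of 41.4, with a range of 33.3 to 70.0. The lower ends are those of the rank limit. The better rank was split evenly: 529 had the better rank in replicate 1 and 552 in replicate 2. For 306 members the ranks in the replicates differed by more than a factor of 2. There were 70 members within the top 1604 of replicate 1 and 73 within the top 1604 of replicate 2, and 0 within both. Of the optimal regions, 1482 (92.4%) met the same limit of 6416 in both replicates.

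**Figure D1:**
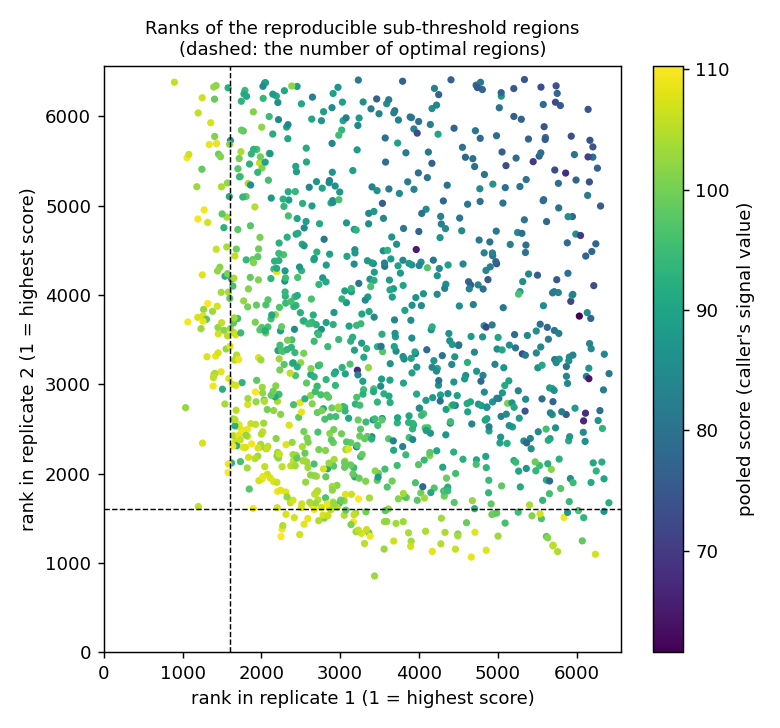
Rank of each of the 1081 members in replicate 1 (x axis) and in replicate 2 (y axis), with rank 1 the highest score and the pooled score as colour; dashed lines mark rank 1604, the number of optimal regions. No point lies in the square where both ranks are within 1604, while 70 members are within it in replicate 1 and 73 in replicate 2.

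Just inside the rank limit, the member in an intron of C13F10.5 had rank 6411 in replicate 1 (score 39.9) and 1673 in replicate 2 (52.6), the member 160 bp upstream of edc-4 had ranks 6413 (39.9) and 3119 (42.3), and the member in an intron of mec-12, a tubulin gene, had ranks 5339 (42.4) and 6411 (33.3). Just outside, the region 84 bp upstream of mboa-7 had ranks 1924 (59.4) and 6424 (33.3), the region in a coding exon of tba-2 had ranks 2638 (53.2) and 6417 (33.3), and the region in an intron of marc-5 had ranks 2601 (53.5) and 6420 (33.3). At the limit of replicate 2 the scores inside and outside were the same to 3 digits, and none of the 3 regions just outside was at the limit of replicate 1.

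The 10 members with the highest pooled scores lay at genes of varied function. The first was in an intron of rpoa-1, which encodes a subunit of RNA polymerase I, at chrII:13679885-13680308, with a pooled score of 110.3 and scores of 49.9 in replicate 1 and 52.1 in replicate 2. The next, at chrIV:14824854-14825277 (110.2, with 56.2 and 58.3 in the replicates), had its summit 198 bp inside sec-61.A, which encodes a subunit of the channel for proteins entering the endoplasmic reticulum. The member at chrII:11756705-11757128 (110.1, with 64.1 and 49.4) lay 2394 bp downstream of the start of F44E5.4, a gene for a heat shock protein of the HSP70 family, within a non-coding gene or pseudogene. The rank limit fell at a score of 39.9 in replicate 1 and 33.3 in replicate 2, so equal scores do not mean equal ranks. The ranks in replicates 1 and 2 were 3234 and 1716 at rpoa-1, 2249 and 1295 at sec-61.A, and 1577 and 2012 at F44E5.4.

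A further 5 of the 10 also had the better rank in replicate 1. The member upstream of sad-1, a kinase of neuronal polarity, at chrX:13502234-13502657 (109.8), scored 68.9 in replicate 1 and 39.2 in replicate 2, with ranks 1320 and 3903. The member 1230 bp upstream of mau-2, which acts in loading cohesin, at chrI:8124359-8124782 (109.6), had rank 1057 in replicate 1, with a score of 74.8, and rank 5535 in replicate 2. The member 240 bp upstream of ubl-5, a ubiquitin-like protein of the mitochondrial unfolded protein response, at chrI:5608869-5609292 (109.6), scored 71.6 and 36.6. The member in an intron of nadk-2, a mitochondrial NAD kinase, at chrII:12050709-12051132 (109.8), scored 59.4 and 43.3. The member in an intron of nac-3, a dicarboxylate transporter, at chrIII:10152920-10153343 (109.6), scored 63.1 and 47.1.

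The last pair of the 10 was the intergenic member assigned to CC8.2, annotated as regulating protein phosphatase 1, and that assigned to F17H10.2, a gene for a MARVEL domain protein. At CC8.2 (chrIV:3652125-3652548, 109.7) the scores were 59.7 and 53.5, and at F17H10.2 (chrX:13113472-13113895, 109.4, summit 88 bp upstream) they were 49.1 and 58.2. On chromosome V the highest member was in an intron of pei-2 (chrV:1021283-1021706, 109.4), with 74.7 in replicate 1 and 39.9 in replicate 2 and a window with 70.9% G and C, the upper end of the range over members.

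The members whose worse rank was best are those that ranked high in both replicates. The best worse rank of all was 1631, in an intron of M01H9.3 at chrIV:4472796-4473219, with scores of 71.2 in replicate 1 (rank 1201) and 53.1 in replicate 2 (rank 1631). The next was in an intron of T28B11.1, an F-box domain gene, at chrV:10723310-10723733 (scores 60.1 and 51.0, ranks 1847 and 1827), and a further one in the same gene at chrV:10719040-10719463 had ranks 1969 and 1921. T28B11.1 spans 20258 bp and held 3 members and 8 optimal regions. Others were the member in an intron of scpl-3, a phosphatase gene, 317 bp before one of its starts (chrI:4299378-4299801, ranks 2010 and 1939, 1253 bp from an optimal summit), and a member 5200 bp upstream of cyd-1, the cyclin D gene (chrII:12982811-12983234, ranks 1821 and 2063).

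Of 16 properties of location and sequence, 10 passed the test between members and the other weaker regions. Members lay outside coding sequence more often than the other weaker regions and less often than the optimal regions. A coding exon held 221 of 1081 member summits (20.4%, 95% interval 18.1 to 23.0), against 33.1% of the other weaker summits (32.5 to 33.7) and 6.23% of the optimal summits (5.10 to 7.53). Both differences passed the two-sided Fisher's exact test, with an adjusted p of 9.48e-19 against the other weaker regions (odds ratio 0.520) and of 4.87e-27 against the optimal regions (odds ratio 3.85, and 5.83 without replicate 2). Intergenic sequence held 429 member summits (39.7%), against 29.4% of the other weaker and 53.8% of the optimal summits (exact adjusted p = 5.89e-12 and 2.82e-12). Introns held 323 (29.9%), against 29.9% and 25.5% (exact adjusted p = 1.00 and 0.0178). Untranslated exons held 48 members and non-coding genes or pseudogenes 60. In the genome, 26.6% of bases are in coding exons, 32.6% in introns and 34.0% between genes.

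The difference in coding exons from the other weaker regions was the 1 of 16 properties that passed the test inside ranks 1605 to 3208. There, 163 of 857 members (19.0%) and 174 of 671 other weaker regions (25.9%) had their summit in a coding exon (odds ratio 0.671, exact adjusted p = 0.0240). Members were more frequent in the upper part of those ranks, so a difference in score remains in this comparison. At ranks 3209 to 4812 the shares were 25.6% of 207 members and 27.3% of 1330 others, which was not tested. Intergenic summits made up 42.4% of members and 36.7% of the others in those ranks, which did not pass (exact adjusted p = 0.216). Since regions do not replicate a condition, each p-value covers scatter over regions of these libraries only, and the intervals, which are exact Clopper-Pearson intervals, cover counting error only.

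Promoters, defined as the 500 bp on either side of a protein-coding start, held 339 member summits (31.4%, 28.6 to 34.2), against 25.4% of the other weaker and 37.8% of the optimal summits. The exact adjusted p was 3.31e-05 against the other weaker regions and 0.00112 against the optimal regions. Inside ranks 1605 to 3208 the promoter share was 32.3% in members and 32.3% in the other weaker regions.

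**Figure D2:**
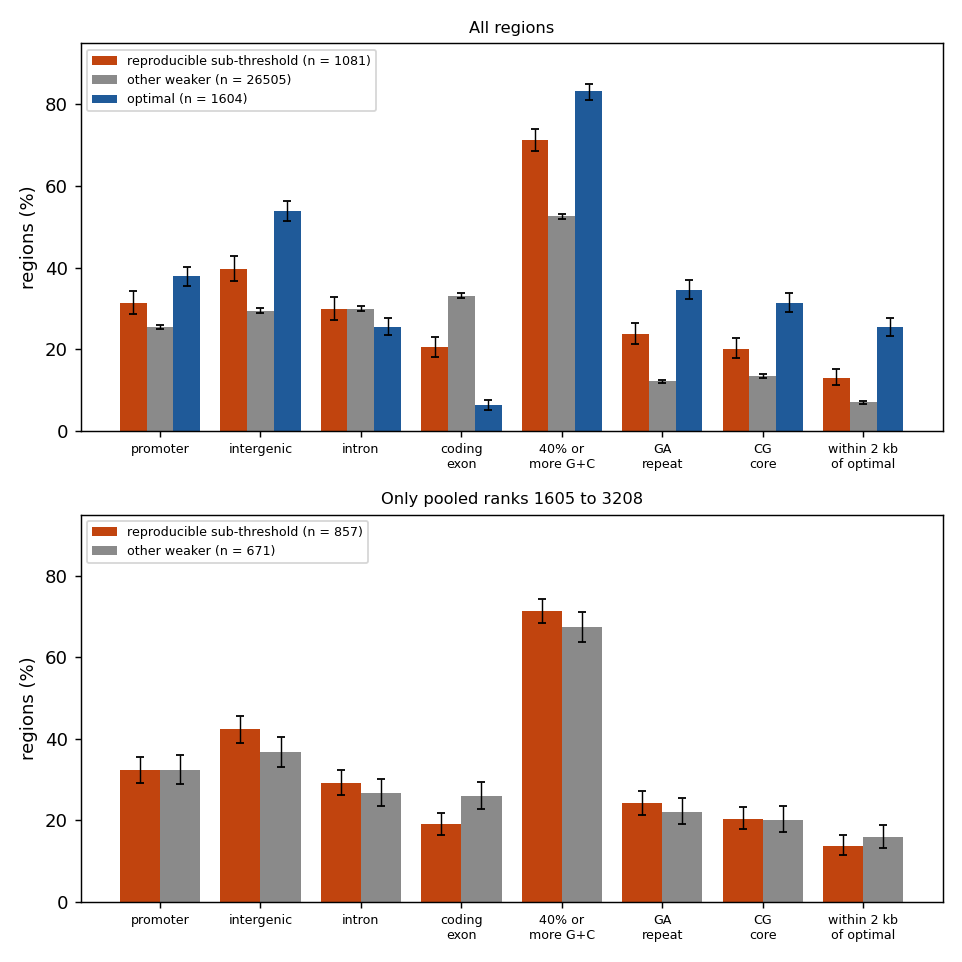
Share of regions (%) with each property among members, other weaker regions and optimal regions (upper panel) and among members and other weaker regions at pooled ranks 1605 to 3208 (lower panel); bars are shares and error bars 95% exact intervals. In the upper panel the member share of coding exons, 20.4%, lies between 33.1% of the other weaker and 6.23% of the optimal regions, and in the lower panel it is 19.0% against 25.9%.

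Within promoters, member summits were more often upstream of the start than those of the other weaker regions. Of the 339 members, 211 (62.2%) were upstream, with a median position of -84 bp, against 47.5% and a median of 17 bp for the other weaker regions and 82.2% and -168 bp for the optimal regions. These positions are given without a test and were not compared inside ranks 1605 to 3208, so the difference in score remains in them. The fullest bins held 63 members at 200 to 100 bp upstream and 58 at 300 to 200 bp upstream, and 22 lay in the bin from 400 to 300 bp upstream. Over all members the median distance to a start was 1139 bp, against 1249 bp in the other weaker and 890 bp in the optimal regions.

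**Figure D3:**
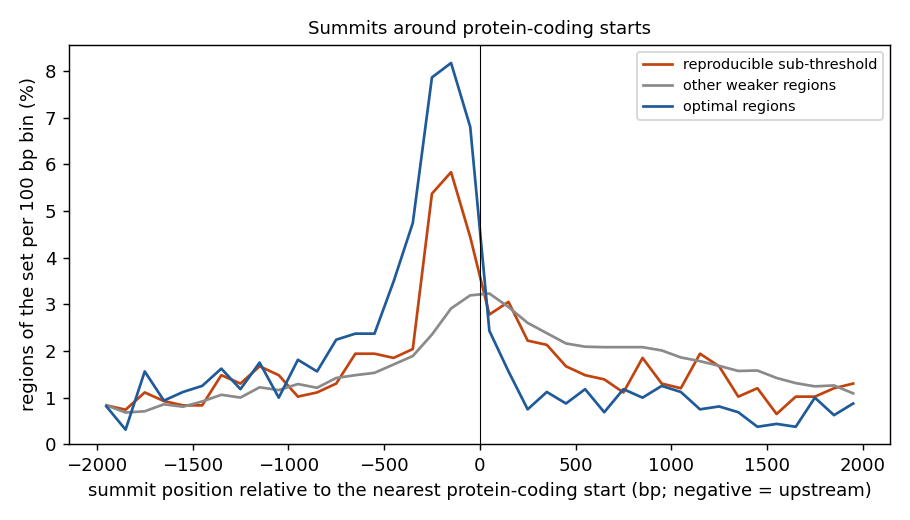
Percentage of each set of regions whose summit lies in each 100 bp bin around the nearest protein-coding start (negative positions are upstream). Members peak at 5.83% in the bin from 200 to 100 bp upstream, below the optimal regions and above the other weaker regions, which are at 2.91% there.

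Members were spread over all 6 chromosomes at 8.92 to 13.7 per Mb, lowest on IV and highest on III. The X chromosome held 197 (18.2%), against 18.3% of the other weaker and 21.3% of the optimal regions (exact adjusted p = 1.00 and 0.0567). Autosomal arms, meaning all but the middle one of 3 equal stretches of an autosome, held 62.7% of the autosomal members, against 66.0% and 58.4% (exact adjusted p = 0.0622 and 0.0567).

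Of 19971 protein-coding genes, 373 (1.87%) had a member within 500 bp of a start, and 357 of these had no optimal region there. Optimal regions stood at 684 genes (3.42%). By the selection no member overlaps an optimal region, which leaves little room for an optimal summit near the same start. Counts of genes without an optimal region, here and below, are therefore largely set by the selection and by the low share of all genes. The counts for families below are descriptions to be read against these shares. A region between divergent genes counts for both.

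Ribosomal protein genes held the largest share of any list, 9 of 78 genes (11.5%), at 7 regions. Of these genes 8 had no optimal region, and 22 of the 78 genes had one. The member summits lay 247 to 416 bp upstream of 8 of the 9 starts, with pooled scores of 95.22 to 109.4. The highest, upstream of rpl-23 (chrIII:5706175-5706598), scored 56.1 in replicate 1 (rank 2263) and 56.7 in replicate 2 (rank 1379). A member between rpl-36 and rps-14 scored 53.9 and 45.9, a member between rpl-24 and rps-10 scored 50.7 and 47.4, and that upstream of rpl-39 scored 58.1 and 48.8. The ranks differed more at rpl-7 (1193 and 3749, scores 71.6 and 39.7) and rpl-28 (5618 and 1296, scores 41.7 and 58.3). They also did at rps-28 (2983 and 5788, scores 51.2 and 34.5). There the summit lay 400 bp downstream of the start, in intergenic sequence and so outside the gene. Proteins of both ribosomal subunits were among them.

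Heat shock and chaperonin genes had members at 4 of 61 (6.56%), none of which had an optimal region, at 3 regions. The member at chrV:1804965-1805388 had its summit 1 bp upstream of hsp-16.41 and 220 bp upstream of hsp-16.2, divergent genes for small heat shock proteins that heat induces. Its pooled score was 103.0, with 56.3 in replicate 1 and 41.5 in replicate 2, and both replicates placed the summit at the same base. Members also stood 93 bp downstream of the start of hsp-16.20 (91.28, with ranks 4612 and 2784 in the replicates) and in an intron, 151 bp before a start of hsp-70 (85.05, with 43.9 and 35.8).

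Transcription factor genes with a member included elt-7, a GATA factor of the intestine. Its member at chrV:4770431-4770854 had its summit 27 bp upstream of the start, a pooled score of 108.2 and scores of 70.2 in replicate 1 and 38.2 in replicate 2. The window held TGATAA and GAGAGA. The other transcription factors with a member were atf-7 (105.4), zip-5 (101.1), ztf-9 (90.46) and zip-12 (84.88), for 5 of 88 genes (5.68%). Nuclear hormone receptor genes had members at 6 of 269 (2.23%), close to the share of all genes. These included nhr-25, which acts in epidermis and moulting (104.4, with 56.0 and 56.2), and nhr-49, a regulator of fat metabolism (85.39, with 45.2 and 38.6). The other receptor genes were nhr-43, nhr-114, nhr-256 and nhr-58, with pooled scores of 102.7, 96.79, 90.76 and 86.68. At nhr-49 and nhr-114 the summits lay in coding exons.

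Histone genes had members at 4 of 72 (5.56%), as 2 divergent pairs, and an optimal region at 1. The member between his-67 (histone H4) and his-68 (H2A) at chrI:9988769-9989192 had a pooled score of 107.9, with 51.5 in replicate 1 and 53.1 in replicate 2. The member at his-31 and his-32 scored 61.57, the lowest of all members, with 40.7 and 39.7 in the replicates, and its summit lay in a coding exon. Histone genes are near-identical copies, but the 51 bp at the summit of each of these members occurs once in the genome.

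Genes of the mitochondrial respiratory chain had members at 3 of 46 (6.52%): cyc-1 for cytochrome c1 (105.9, with 55.2 and 52.6), ucr-2.2 for a subunit of complex III (100.3, with 51.1 and 44.3) and asb-2 for a subunit of ATP synthase (79.24, with 41.9 and 34.9). Collagen genes of the cuticle had members at 6 of 170 (3.53%), the same number as had an optimal region. The highest of these was 459 bp downstream of a start of col-72 (107.1), followed by col-39 (105.7), col-166 (102.0), col-35 (94.18), col-54 (88.58) and col-111 (81.79). At col-35, col-54 and col-111 the summits lay in coding exons, 421, 287 and 394 bp downstream of a start. F-box and MATH domain genes had 1 of 400 (bath-36, 93.63) and C-type lectins 1 of 239 (clec-178, 103.3). The list of symbols made for chemoreceptors had 4 of 1370 (0.292%), and 2 of those 4 are no chemoreceptors, srp-7 being a serpin gene (107.6) and srap-1 a gene for an Apple domain protein (87.52).

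For 6 of the 16 lists there was no member at a start. These were translation factors, cell cycle and DNA replication, splicing, chromatin regulators, the proteasome and homeobox genes, with 358 genes together, and each of these lists had genes with an optimal region, such as 8 of 42 for translation factors and 10 of 81 for the cell cycle. A count of 0 in lists of this size says little when 1.87% of all genes have a member.

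Genes for tRNAs stood near 49 members (4.53%, 3.37 to 5.95), against 1.02% of the other weaker and 7.48% of the optimal regions (exact adjusted p = 1.04e-15 and 0.00293). Without replicate 2 in the selection, the odds ratio against the other weaker regions was 2.38, against 4.65 with both replicates, and within pooled rank 6416 it was 1.88, all of which passed. Against the optimal regions it was 0.591, and 0.382 and 0.284 without replicate 1 and without replicate 2. Of the 49 members 37 had their summit within 100 bp of the tRNA gene's start. Inside ranks 1605 to 3208 the shares were 4.78% in members and 4.92% in the others, and the difference did not pass the test. Counted by gene, 60 of 612 tRNA genes (9.80%) had a member and 140 had an optimal region. On X were 20 of the 49 members (40.8%), against 42.6% of the other weaker regions near tRNA genes and 45.1% of all tRNA genes.

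The highest of them was at a tRNA-Ala gene on X (chrX:7323571-7323994, pooled score 108.6), with 58.4 in replicate 1 and 49.8 in replicate 2. The 51 bp at its summit occur 19 times in the genome, so its reads could come from other copies. A member at another tRNA-Ala gene (chrX:9637706-9638129, 106.1) had the highest replicate 1 score of all members, 80.2, and 33.4 in replicate 2, with ranks 897 and 6381. The member at the tRNA-Lys gene in brd-1 (105.2) was the other way round, with 41.5 and 60.4. Summit windows of 10 of the 49 members were not unique. Over all members, 98.5% of summit windows were unique, against 98.9% of the other weaker and 98.2% of the optimal regions (exact adjusted p = 0.288 and 0.544).

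Genes for snoRNAs stood near 10 members (0.925%), against 0.570% of the other weaker and 4.68% of the optimal regions (exact adjusted p = 0.197 and 1.55e-08). The snoRNA share of members was thus below that of the optimal list, and its difference from the other weaker regions did not pass. That difference passed with a rank limit of 8 times the optimal number (odds ratio 1.88), with 1000 bp around starts (2.03) and without replicate 1 (1.66) or replicate 2 (1.91), while inside ranks 1605 to 3208 the shares were 1.17% in members and 1.49% in the others. The highest was at chrIV:866663-867086 (107.6, with 57.5 and 49.9), 258 bp from the start of the snoRNA gene Y55F3BR.9, in a coding exon of Y55F3BR.2. The next were the member between rpl-24 and rps-10, 402 bp from the start of the snoRNA gene D1007.20, and a member at chrII:5701438-5701861 (101.7, with 65.3 and 40.3), 12 bp from the start of C18A3.12. Genes for snRNAs had a member at 8 of 129 (6.20%) and miRNA genes at 7 of 260 (2.69%).

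Summit windows of members were richer in G and C than those of the other weaker regions. At least 40% G and C was found in 771 windows (71.3%, 68.5 to 74.0), against 52.6% of the other weaker and 83.2% of the optimal windows (exact adjusted p = 1.09e-33 and 2.23e-12). The odds ratio against the optimal regions was 0.504, and 0.333 without replicate 1. The median was 43.7% in members, 40.4% in the other weaker and 47.7% in the optimal regions. Inside ranks 1605 to 3208 the share was 71.4% in members and 67.5% in the others (exact adjusted p = 0.416).

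The GA repeat had the widest gap of the 5 motifs between members and the other weaker regions. It was present on either strand within 75 bp of 257 member summits (23.8%, 21.3 to 26.4), against 12.1% of the other weaker and 34.5% of the optimal summits (exact adjusted p = 4.92e-24 and 6.37e-09). The CG core was present at 217 (20.1%), against 13.4% and 31.4% (exact adjusted p = 6.32e-09 and 2.51e-10). For comparison, 10.6% of windows of the same length at all 27051 protein-coding starts held the GA repeat and 11.1% the CG core. Inside ranks 1605 to 3208 the GA repeat was in 24.3% of members and 22.1% of the others (exact adjusted p = 0.659), and the CG core in 20.4% and 20.1% (exact adjusted p = 1.00).

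The E-box CACGTG was in 6.38% of member windows, against 3.98% of the other weaker and 7.92% of the optimal windows (exact adjusted p = 0.000497 and 0.161). TGATAA went the other way: it was in 13.1% of member windows, against 12.4% and 8.85% (exact adjusted p = 0.584 and 0.00106), and 15.1% of windows at starts. The B box core GTTCGANNC was in 2.78%, against 1.78% and 5.36% (exact adjusted p = 0.0320 and 0.00209), and without regions near tRNA genes its odds ratio against the other weaker regions was 0.641 (exact adjusted p = 0.263). Inside ranks 1605 to 3208 the E-box was in 6.07% of members and 5.81% of the others. TGATAA was in 13.9% and 12.7% there, and the B box core in 2.68% and 3.87%, and none of these differences passed. Of the members, 532 (49.2%) held none of the 5 motifs, against 63.1% of the other weaker and 35.1% of the optimal regions. Both the GA repeat and the CG core were in 72 members (6.66%), against 2.24% and 13.6%.

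The motif shares were also split by location. The GA repeat was in 29.6% of intergenic member windows, against 16.3% of the other weaker and 34.9% of the optimal ones. In introns it was in 24.1%, against 11.7% and 39.6%, and in coding exons in 13.1%, against 7.89% and 11.0%. The CG core was in 25.4% of intergenic member windows, against 13.6% and 35.3%, and in introns in 14.6%, against 12.9% and 28.6%. These splits were not tested.

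**Figure D4:**
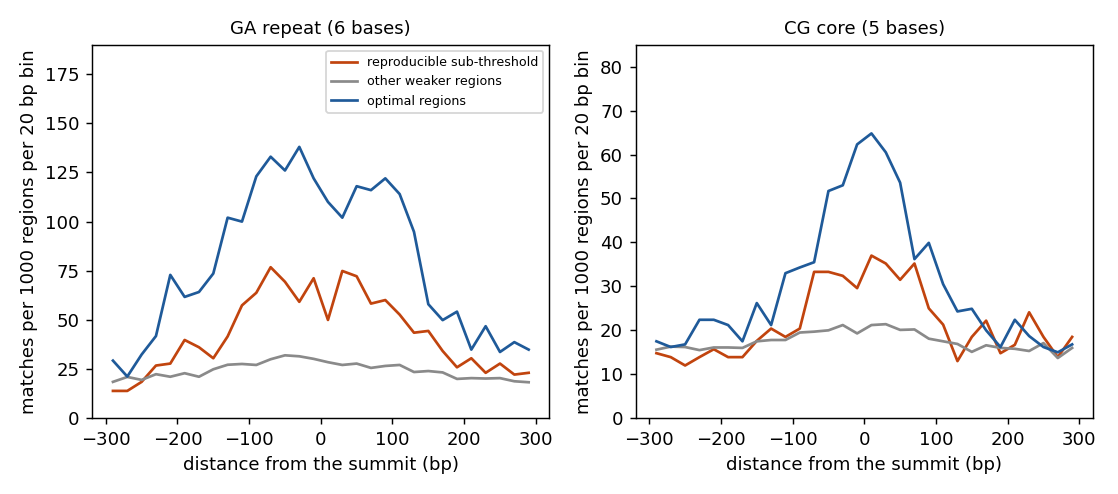
Matches of the GA repeat (left) and the CG core (right) per 1000 regions in 20 bp bins around the summits of members, other weaker regions and optimal regions. Members lie between the other sets near the summit, with 37.0 CG core matches per 1000 regions in the bin just right of the summit, against 21.2 and 64.8.

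All 2080 6-mers, each counted together with its reverse complement, were compared between member summits and a flank 400 bp to one side by the exact McNemar test with Benjamini-Hochberg adjustment. At member summits 469 (22.5%) were more frequent and 246 (11.8%) less frequent. GAGAGA was first, at 23.8% of summits and 7.49% of flanks (exact adjusted p = 1.04e-23). CGTCTC was at 14.4% and 3.89% (exact adjusted p = 5.20e-16), and GACGCA, which contains the CG core, at 9.71% and 1.94% (exact adjusted p = 7.22e-14). CACACA, a repeat of another kind, was at 15.1% and 5.55% (exact adjusted p = 1.99e-12). The less frequent words were led by AAAATT, at 28.1% of summits and 56.6% of flanks (exact adjusted p = 8.43e-37). Most of the 20 leading ones were made of A and T alone, but 4 also held G or C, such as TTCAAA at 20.9% and 41.2%.

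The same comparison at optimal summits gave 1211 6-mers that passed (58.2%), 729 of them more frequent and 482 less frequent. Of the 469 of members, 403 were also more frequent at optimal summits, which is 85.9% of the members' and 55.3% of the optimal regions' words, and 0 went the other way. In the 771 members with 40% G and C or more in the window, 829 words passed, and in the 310 with less 0 passed. That split is on the summit window's own composition and its sets differ in size. It does not isolate the part of base composition in these counts, which was not tested.

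Weaker regions were also split by the replicates in which they ranked high. The GA repeat was in 23.8% of members, 16.2% of the 3149 regions high only in replicate 1, 15.6% of the 2921 high only in replicate 2, 11.0% of the 20435 high in neither and 34.5% of the optimal regions. Coding exons held 20.4%, 30.6%, 28.2%, 34.2% and 6.23% in the same order, and promoters 31.4%, 28.2%, 28.6%, 24.5% and 37.8%. For these 3 properties both single-replicate classes lay between the members and the regions high in neither replicate. This order did not hold for every property: introns held 29.9%, 28.0%, 29.9%, 30.2% and 25.5%, and X held 18.2% of members, 17.6% and 17.5% of the single-replicate classes and 18.5% of those high in neither. The replicates chose these classes, so the shares are given without a test. The classes were not matched on pooled score. Inside ranks 1605 to 3208 the GA repeat was in 24.3% of members and 22.1% of the other weaker regions. Promoters held 32.3% and 32.3% there, and coding exons 19.0% and 25.9%.

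**Figure D5:**
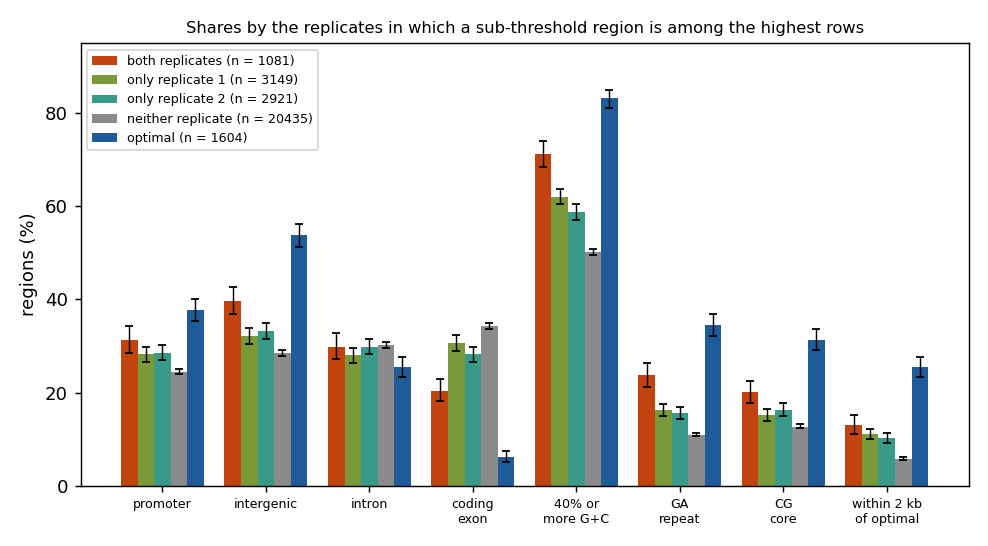
Share of regions (%) with each property among members (high in both replicates), weaker regions high only in replicate 1, only in replicate 2 or in neither, and optimal regions, with 95% exact intervals. The single-replicate classes lie close together, for instance at 16.2% and 15.6% for the GA repeat, between the members at 23.8% and the regions high in neither replicate at 11.0%. The classes were not matched on pooled score.

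Members were nearer to optimal regions than the other weaker regions were. Of the members, 141 (13.0%, 11.1 to 15.2) had an optimal summit within 2000 bp, against 6.93% of the other weaker regions, a difference that passed (odds ratio 2.02, exact adjusted p = 1.04e-11). Regions that overlap an optimal region had been removed from both sets. Another optimal summit stood that near 25.4% of optimal regions, which is given without a test because the selection removed the closest regions. Inside ranks 1605 to 3208 the shares were 13.8% in members and 15.8% in the others. The median distance to an optimal summit was 13976 bp in members and 24119 bp in the other weaker regions. Of the members, 20 were within 1000 bp of another member, and the median distance to the next member was 21046 bp. No spacing under random placement was computed, so whether members stood together or apart was not tested.

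A protein-coding gene held 588 of the members, in 525 genes. In 72 of these genes, with 99 members, there was an optimal region as well. No share over all genes was computed for these counts and gene length was not taken into account, so they are description only. Of the 525 genes, 10 had at least 3 members, led by lit-1, a kinase of Wnt signalling, with 4 members and 0 optimal regions in 22412 bp. T28B11.1 had 3 members beside 8 optimal regions, mnk-1, a kinase gene, had 3 beside 4, and unc-43, which encodes CaMKII, had 3 beside 2. The transcription factor gene jun-1, the carnitine palmitoyltransferase gene cpt-1, mtm-3 and nac-3 had 3 members each and 0 optimal regions.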

How the data were processed

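Regions bound by Y55F3AM.14-eGFP were taken from 4 deposited ce11 lists: 1 relaxed list per replicate, 1 from both replicates pooled and the optimal list. Per the README deposited with the samples, the authors made each relaxed list from alignments and 1 control, and thresholded the irreproducible discovery rate for the optimal list. The deposited score is the authors' signal value per region, and the deposited −log10 q value is the peak caller's. For the aligner, caller, versions and threshold: not given in the sources used here. The depth is unknown.

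Summits were matched within 100 bp and located in the RefSeq annotation of WBcel235. A promoter is 500 bp on either side of a protein-coding start, a sequence window 75 bp on either side of a summit, and a unique window 25 bp on either side that occurs once. Sets were compared by the two-sided Fisher's exact test over 16 properties and 6-mers by the exact McNemar test, each with Benjamini-Hochberg adjustment at 0.05, and odds ratios had 0.5 added to each count. Python 3.11.15, numpy 2.4.6, pandas 2.3.3, SciPy 1.17.1 and matplotlib 3.10.9 were used, and the tests were tested on simulated data. Named regions were the 10 highest pooled scores, the 10 best worse ranks, the highest on each chromosome, in each gene list and the 3 highest near tRNA and near snoRNA genes, and 3 on each side of the rank limit. The other genes of the lists and genes with at least 3 members were named after their values were seen. Sequence windows that overlap an untranslated exon were passed over. The members and lists were chosen with earlier results of these data known. Other rank limits, summit distances, windows and subsets of regions were tried.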

Additional observations from a re-analysis of the deposited data

How the results depend on the processing

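Values are odds ratios of members against other weaker regions, then against optimal regions; the cause was not tested. In the first comparison calls were gained for the arm, intron and snoRNA shares and lost for those of promoters, near-optimal regions, the CG core, the E-box and the B box core, each under at least 1 planned setting. A rank limit equal to the number of optimal regions left 0 members and no value. With a limit of 2 times that number, they were 1.11 (intron), 1.03 (X) and 2.07 (GTTCGANNC), then 0.794 (promoter), 1.38 (intron), 0.584 (tRNA), 0.810 (GAGAGA), 0.668 (GTTCGANNC), 0.771 (unique window) and 1.12 (CACGTG). With 8 times, they were 0.902 (intron), 0.896 (arm), 1.88 (snoRNA), 1.02 (X) and 0.981 (TGATAA), then 1.14 (intron), 0.839 (X), 1.25 (arm) and 0.597 (CACGTG). Summits within 50 bp gave 1.01 (intron), 0.973 (TGATAA) and 1.27 (GTTCGANNC), and within 200 bp 0.848 (arm), then 0.812 (X). With pooled ranks within 6416, they were 1.11 (promoter), 1.13 (near-optimal), 1.15 (GACGC), 1.43 (CACGTG), 1.09 (intron), 1.00 (X), 0.873 (snoRNA) and 0.969 (GTTCGANNC), and 5 of 16 properties passed. Regions over 1000 bp from optimal summits gave 1.00 (intron), 1.02 (X) and 0.855 (arm). With 1 region per 1000 bp, they were 1.02 (intron), then 1.21 (arm). Unique windows gave 1.00 (intron) and 1.34 (GTTCGANNC), and regions away from tRNA genes 1.52 (unique window) and 0.641 (GTTCGANNC), then 0.802 (unique window). A start window of 1000 bp gave 1.14 (promoter) and 2.03 (snoRNA), and a sequence window of 50 bp on each side 1.51 (GTTCGANNC).

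The following were chosen after seeing the data. Inside pooled ranks 1605 to 3208, they were 0.999 (promoter), 1.13 (intron), 1.00 (X), 1.24 (arm), 0.969 (tRNA), 0.781 (snoRNA), 0.851 (near-optimal), 1.41 (unique window), 0.686 (GTTCGANNC), 1.27 (intergenic), 1.20 (G and C), 1.13 (GAGAGA), 1.02 (GACGC) and 1.04 (CACGTG). Windows with 40% G and C or more gave 1.25 (CACGTG) and 1.40 (GTTCGANNC), and those with less 1.43 (GACGC) and 1.44 (GTTCGANNC), then 1.16 (GAGAGA), 1.03 (GACGC), 1.38 (CACGTG), 1.03 (TGATAA) and 0.709 (GTTCGANNC). Without coding exons, they were 0.744 (intron), 0.780 (arm) and 1.02 (X), then 0.988 (unique window). Regions high in 1 replicate as the others, a set that the replicate ranks chose, gave 1.15 (promoter) and 1.20 (GTTCGANNC).

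Leaving out each replicate in turn gave 0.922 to 0.997 (intron), 0.894 to 0.899 (arm), 1.66 to 1.91 (snoRNA), 0.882 to 1.54 (unique window), 0.997 to 1.02 (TGATAA) and 1.25 to 1.70 (GTTCGANNC), then 0.791 to 0.797 (X), 1.25 to 1.26 (arm), 1.50 to 2.42 (unique window) and 0.592 to 0.649 (CACGTG). The number of 6-mers that passed, 715 in either direction, was 1182 to 1272 with a replicate left out. It was 110 and 1157 with rank limits of 2 and 8 times, and 605 without summits in coding exons. In the 771 windows with 40% G and C or more it was 829, and in the 310 with less it was 0. In those 310, 104 words had an unadjusted p under 0.05 in the exact McNemar test. That split is on the summit window's own composition, which bears on the words counted, and its sets differ in size. No paired analysis was possible because there was 1 group. The unknown depth limits what a score or a missing region can show.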
